A study of Scyliorhinus canicula with 3 samples.

Results

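Of 20633 nuclei from the retinas of 3 catsharks, 99 were taken as pigment epithelium-like. They were chosen by their counts of *enpp2*, *pmela* and *gja1b* and by the absence of *flt1*, so the values of these 4 genes made the class and are no finding about it.

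The pigment epithelium is the single layer of dark cells behind the photoreceptors. It takes up shed outer segments, recycles the vitamin A derivative that opsins use, moves ions and nutrients between blood and retina, and holds melanin in organelles called melanosomes. Its cells arise from the outer wall of the optic cup and continue at the margin of the eye into the epithelia of the ciliary body and iris. Their genes are known mainly from mammals, chick and zebrafish, and the roles given below are background from those animals.

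The animals were small-spotted catsharks, *Scyliorhinus canicula*, 3 juvenile females of 11.0, 10.5 and 11.1 cm total length, and 1 retina of each gave 1 single-nucleus RNA library. Whether the pigment epithelium was kept or peeled off at dissection is not given in the sources used here. There was 1 condition, untreated retina, so no treatment or genotype was compared and each library is 1 replicate. The value deposited for a nucleus and a gene is a raw count of unique molecular identifiers (UMIs), each standing for 1 captured RNA molecule. Libraries 1, 2 and 3 held 73310348, 50691314 and 71366924 UMIs in all. The study's limits for each library, on UMIs, features and mitochondrial share, were met by 6053, 4426 and 10154 nuclei. The study's final atlas held fewer nuclei. It also screened for doublets and removed 3 clusters that came mostly from 1 sample, and these steps were not applied here.

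A nucleus was taken as pigment epithelium-like if it held at least 3 UMIs summed over *enpp2*, *pmela* and *gja1b*, at least 2 of these genes, a sum of at least 0.15% of its nuclear-genome UMIs, and no UMI of *flt1*. *enpp2* encodes autotaxin, a secreted enzyme that makes the lipid signal lysophosphatidic acid, *pmela* the protein whose fibrils carry melanin inside the melanosome, and *gja1b* the gap junction protein connexin 43. *flt1* encodes a receptor for vascular endothelial growth factor and was used to keep other cells out. The rule found 12, 14 and 73 nuclei in libraries 1, 2 and 3, which is 99 of 20633. These are 0.198% (exact 95% binomial interval 0.102 to 0.346), 0.316% (0.173 to 0.530) and 0.719% (0.564 to 0.903) of the nuclei, with a mean of 0.411% ± 0.273 (SD, n = 3 libraries). The interval of library 3 lay above those of libraries 1 and 2, and the intervals cover counting error only. With the limits of library 1 applied to all libraries, the intervals of libraries 2 (0.221 to 0.676%) and 3 (0.594 to 0.991%) overlapped, and they also did with *flt1* allowed, all 3 genes required, mitochondrial UMIs under 5% or at least 2000 UMIs. Of the 99 nuclei, 73 came from the animal of library 3.

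The 3 genes that chose the nuclei are given as a description, with no test. Levels are in CPM, UMIs of a gene per 1000000 nuclear-genome UMIs summed over all nuclei of a class in a library. The members held 42661, 51812 and 242511 UMIs in libraries 1, 2 and 3. *enpp2* (chr10:139423465-139594973 on build sScyCan1.1) stood at 4126, 4574 and 5641 CPM in libraries 1, 2 and 3, against 13.1, 43.1 and 44.1 CPM in all other nuclei. *pmela* (chr28:1381086-1431674) stood at 516, 1158 and 1752 CPM against 6.06, 11.6 and 9.40. *gja1b* (chr6:96903196-96921652) stood at 1008, 1177 and 1946 CPM against 15.1, 32.5 and 32.9. Free RNA was read from near-empty droplets, 34947, 26769 and 32186 barcodes that held 200 or more features but lay at or below the median UMI count of all barcodes with that many. There *enpp2* reached at most 71.4 CPM, *pmela* 21.2 CPM and *gja1b* 48.6 CPM in any library. The level of each gene was lowest in library 1 and highest in library 3, and *pmela* varied most between animals.

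**Figure D1:**
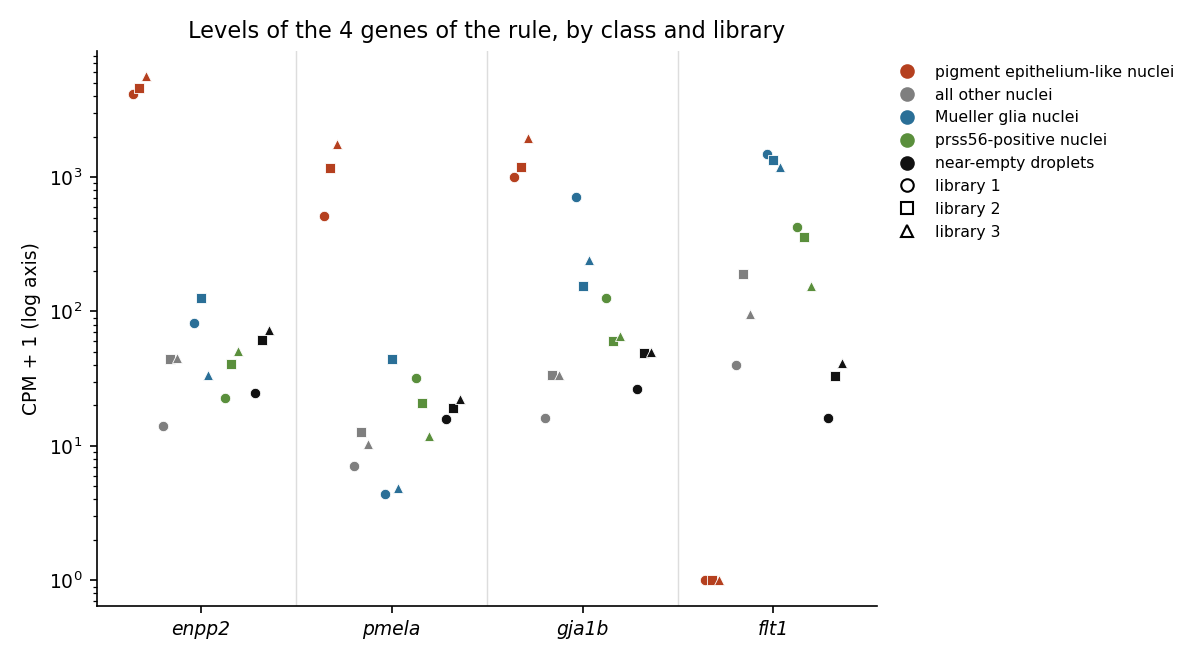
Levels of the 3 genes that chose the nuclei and of the excluded gene *flt1* (x axis) in CPM with 1 added on a log axis (y axis), for 5 classes (colours) in 3 libraries (symbols), 1 point for each class and library. The pigment epithelium-like nuclei hold 516 to 5641 CPM of the choosing genes and 0 of *flt1* by construction, while *gja1b* reaches 705 CPM and *flt1* 1478 CPM in Mueller glia nuclei.

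Within the nuclei the 3 genes came in different mixtures. All 3 were found in 7, 8 and 44 nuclei, *enpp2* with *pmela* alone in 2, 2 and 7, *enpp2* with *gja1b* alone in 3, 1 and 8, and *pmela* with *gja1b* alone in 0, 3 and 14. The lowest, median and highest sum of the 3 genes per nucleus was 3, 11 and 94 UMIs in library 1, 3, 12 and 93 in library 2, and 3, 18 and 249 in library 3. As shares of a nucleus's UMIs, *pmela* and *gja1b* had Spearman correlations of -0.11, 0.76 and 0.56 over the 12, 14 and 73 nuclei, and *enpp2* and *pmela* had -0.27, -0.13 and -0.18. Nuclei of a library share its depth, and the threshold on the sum ties the 3 shares to each other, so these are descriptions. The plot of *enpp2* against *pmela* shows a long arm along *enpp2* in each library and, in libraries 2 and 3, a second set of nuclei with *pmela* and little or no *enpp2*.

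**Figure D2:**
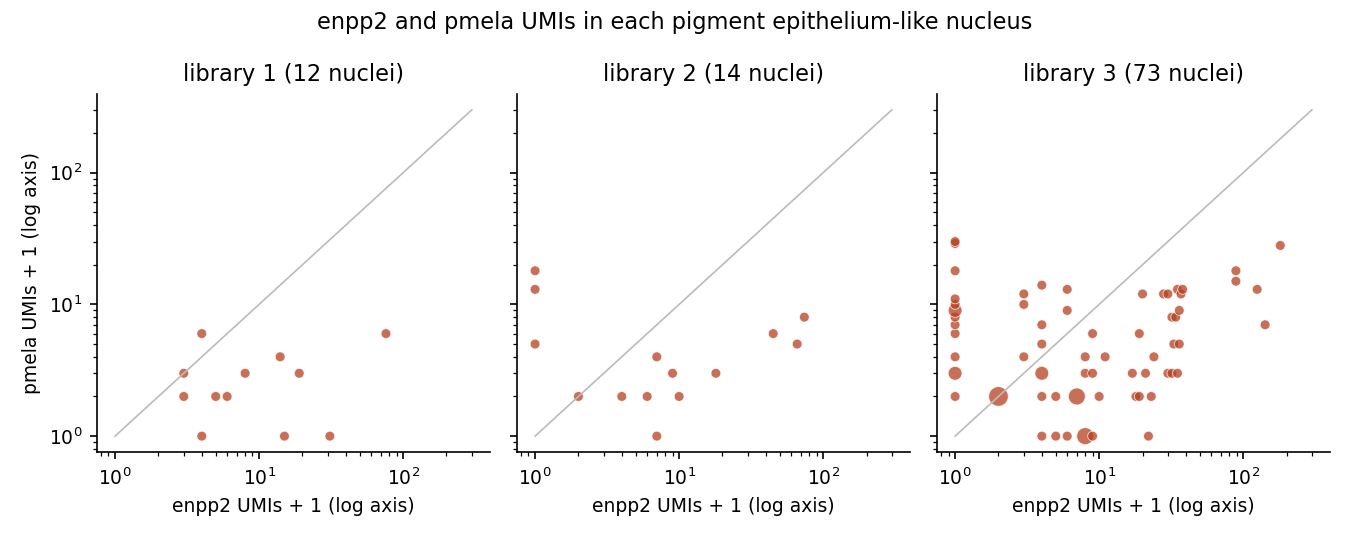
UMIs of *enpp2* (x axis) and *pmela* (y axis) with 1 added, on log axes, in each pigment epithelium-like nucleus, 1 panel for each library; the area of a point grows with the number of nuclei at that position and the grey line marks equal counts. *enpp2* reaches 75, 73 and 180 UMIs in 1 nucleus of libraries 1, 2 and 3, while *pmela* reaches 5, 17 and 29.

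Many nuclei sat near the edges of the rule. The sum was exactly 3 UMIs in 1, 1 and 5 nuclei of libraries 1, 2 and 3, while 1, 1 and 7 nuclei held 2 UMIs and met the rest of the rule. The share was under 0.2% in 4, 1 and 4 nuclei, and 10, 10 and 23 nuclei were left out only for a share under 0.15%. Further nuclei, 5, 17 and 10 of them, were left out for holding 1 of the genes alone, and 2, 10 and 15 for holding *flt1*. A share of at least 0.3% would leave 6, 10 and 65 nuclei, and allowing *flt1* would give 14, 24 and 88. Of the near-empty droplets, 1, 2 and 2 met the marker rule. Nuclei within the limits shared 1, 16 and 15 barcodes between libraries 1 and 2, 1 and 3, and 2 and 3, none of them carried by 2 nuclei that both met the rule. Median depth was 2740, 2629.5 and 2588 nuclear-genome UMIs per nucleus against 3401, 2183.5 and 2023 in all other nuclei. The median mitochondrial share was 3.39, 2.75 and 3.53% against 3.29, 2.12 and 1.88%, higher in each library, and its part in the results was not tested. No member was among the 4% of nuclei with the highest doublet scores from Scrublet.

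For tests, UMIs were summed over the nuclei of each library and set against the sum of all other nuclei of the same library, in an edgeR quasi-likelihood fit with the library as a block. A gene was called if its Benjamini-Hochberg adjusted p over all genes tested was under 0.05 and its log2 fold change was at least 1 in size. Of 16987 genes tested, 452 (2.66%) were called higher and 509 (3%) lower, 5.66% in either direction, in the pigment epithelium-like nuclei. Without library 2 the counts were 150 higher and 51 lower, and without library 3 they were 91 and 257, so both counts rest on these animals. The median log2 fold change of all genes was -0.35, and -0.13 with RLE size factors in place of TMM, which gave 664 higher and 412 lower, 61.7% higher among the calls against 47.0%. Changes below are TMM-scaled and are best read against that median.

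The 12 leading genes with a symbol were those of largest change that were higher in all 3 libraries, above near-empty droplets in each, and at 50 CPM or more on average. Transporters and channels were among them. *slc38a4* (chr20:28324333-28360142), a sodium-coupled carrier of neutral amino acids, had 1008, 1042 and 1122 CPM in libraries 1, 2 and 3, against 19.7, 24.3 and 26.5 in all other nuclei. It was the steadiest of the leading genes across animals, at a mean of 1057 ± 58.3 CPM (SD, n = 3), and its log2 fold change was 5.23 ± 0.51 (SE, edgeR adjusted p = 1.1e-21). *rh50* (chr7:171780059-171782302), a relative of the Rhesus blood group proteins that carry ammonia, had 70.3, 116 and 259.8 CPM against 0.610, 2.45 and 1.96, a log2 fold change of 6.37 ± 0.65 (edgeR adjusted p = 8.57e-20). *kcnj13* (chr13:81776759-81781914), an inward rectifier potassium channel of the apical pigment epithelium membrane in mammals, had 141, 19.3 and 90.7 CPM against 0.646, 5.44 and 3.58. Its log2 fold change was 4.71 ± 0.70 (edgeR adjusted p = 6.43e-09), from 6, 1 and 22 UMIs, and the call was lost without library 3. *cldn19* (chr16:108999249-109006621), a claudin of tight junctions that is abundant in human fetal pigment epithelium, had 70.3, 38.6 and 90.7 CPM against 2.48, 1.1 and 2.20. The log2 fold change was 5.01 ± 0.68 (edgeR adjusted p = 6.41e-11), and this call too was lost without library 3. For all 4 genes the lowest library of the pigment epithelium-like nuclei was above the highest of the others, which the way they were chosen favoured.

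Secreted proteins formed a second group. *clec19a* (chr15:1910277-1958827), a protein with a C-type lectin domain, had 117, 57.9 and 256 CPM against 0.215, 1.34 and 2.27, the largest change of a leading gene with a symbol, at 6.77 ± 0.67 (edgeR adjusted p = 1.42e-20). *wfdc1* (chr9:21441428-21502592), a small secreted protein with a protease inhibitor domain, had 188, 116 and 157 CPM against 2.73, 2.69 and 3.09. Its log2 fold change was 5.50 ± 0.59 (edgeR adjusted p = 5.92e-18). *ccn2a* (chr6:107769989-107772670), connective tissue growth factor, had 23.4, 232 and 206 CPM against 1.54, 2.93 and 1.56, low in library 1 with 1 UMI. *tsku* (chr14:10153389-10164867), a secreted leucine-rich repeat protein that binds growth factors, had 164, 38.6 and 28.9 CPM against 0.969, 0.306 and 0.888, from 7, 2 and 7 UMIs. The log2 fold changes of *ccn2a* and *tsku* were 6.10 ± 0.63 and 5.88 ± 0.65.

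Transcription factors made up the rest. *mecom* (chr13:132935049-133850350), a zinc finger regulator, had 2344, 425 and 519.6 CPM against 19.2, 18.9 and 24.5, a log2 fold change of 5.01 ± 0.50 (edgeR adjusted p = 3.03e-20). The level of library 1 came from 100 UMIs, 28 of them in 1 nucleus. *zic2a* (chr14:155776847-155781772), a zinc finger factor of the developing forebrain and eye, had 234, 483 and 124 CPM against 9.83, 5.56 and 4.77, a change of 4.99 ± 0.50 (edgeR adjusted p = 1.55e-20). *rx3* (chr3:58653733-58664587), a homeobox gene needed to form the eye in zebrafish, had 352, 135 and 119.6 CPM against 7, 5.50 and 5.54, a change of 4.63 ± 0.53 (edgeR adjusted p = 1.17e-15). *otx1* (chr1:217994995-218003922), one of the homeobox genes that specify pigment epithelium in mouse, had 23.4, 77.2 and 70.1 CPM against 4.77, 0.611 and 0.704, a change of 5.40 ± 0.65 (edgeR adjusted p = 3.96e-14). Its call was lost without library 3.

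**Figure D3:**
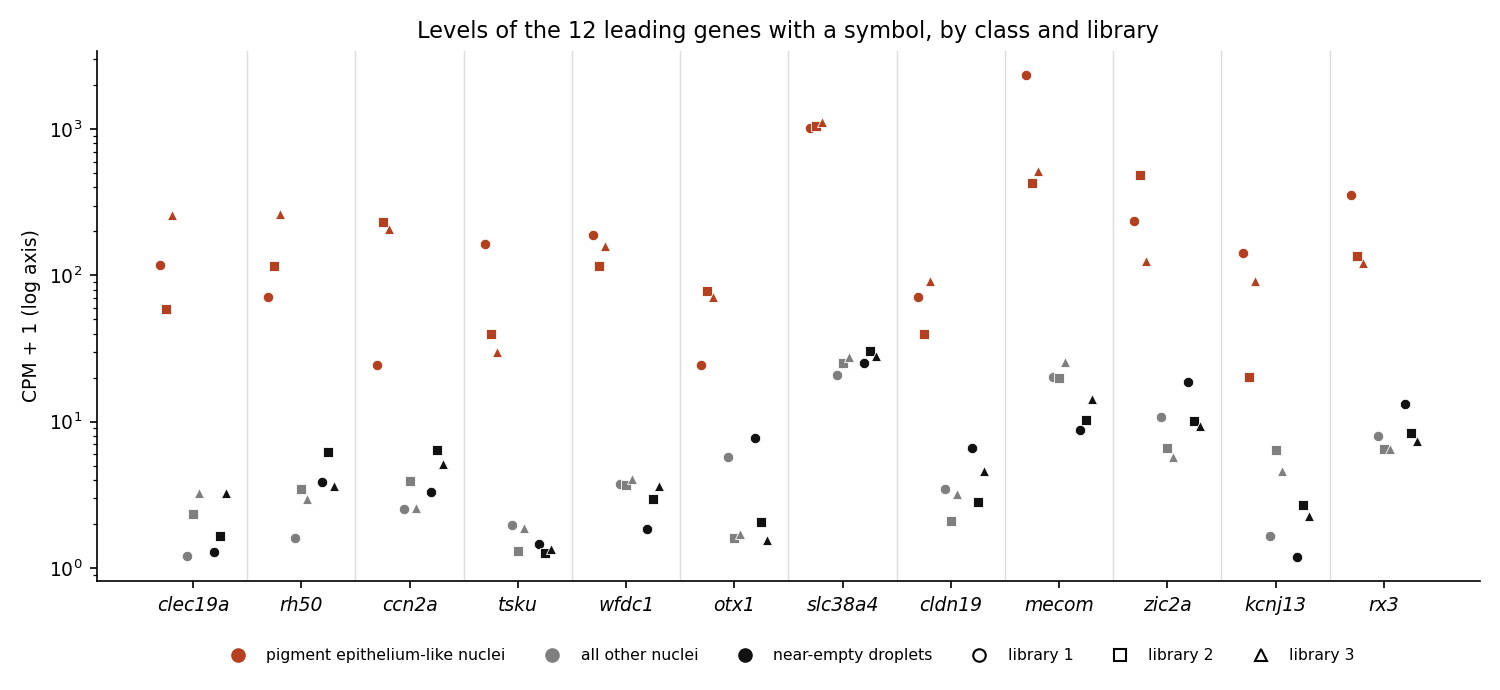
Levels of the 12 leading genes with a symbol (x axis) in CPM with 1 added on a log axis (y axis), in the pigment epithelium-like nuclei, all other nuclei and near-empty droplets (colours) of 3 libraries (symbols), 1 point for each class and library. The lowest red point of each gene is above all its grey and black points, which the way the genes were chosen favoured. *slc38a4* lies within 1008 to 1122 CPM while *mecom* spans 425 to 2344 CPM.

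Of 193 genes that met the conditions for a leading gene, 95 carry a number in place of a symbol in the annotation. Among the 5 of largest change, LOC119950932 (chr16:108920637-108936879) had 211, 251 and 388 CPM against 1.08, 2.14 and 2.63, and a log2 fold change of 6.98 ± 0.52 (edgeR adjusted p = 1.74e-36). It lies 62369 bases from *cldn19* on chromosome 16, with 1 annotated gene between them. LOC119975885 had 164, 96.5 and 198 CPM and LOC119970205 had 46.9, 38.6 and 148 CPM, with log2 fold changes of 6.01 ± 0.61 and 5.93 ± 0.80, and the call of LOC119970205 was lost without library 3. LOC119958121 was high but uneven, at 2414, 232 and 1418 CPM, with a change of 5.30 ± 0.57. LOC119962758 had 985, 289.5 and 478 CPM and a change of 5.24 ± 0.49. All 5 are annotated as protein-coding. None overlapped with the other nuclei in level, which their choice as higher in all 3 libraries and of largest change favoured.

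Genes for melanin and melanosomes were in part higher. Of 25 such genes in the annotation other than *pmela*, 23 could be tested. Of these, 5 were called higher and 1 lower, beside 2.66% and 3% of all genes. The median log2 fold change was -0.09 (0.08 with *vps18*, which had no UMI in the nuclei, at its bound) against -0.35 over all genes. *mlana* (chr8:21324461-21360712), a melanosome membrane protein, had 0, 251 and 635 CPM in libraries 1, 2 and 3 against 1.22, 6.66 and 5.33, a change of 5.68 ± 0.58 (edgeR adjusted p = 9.53e-20). *oca2* (chr14:21967171-22527131), an ion channel that sets melanosome pH, had 469, 270.2 and 227 CPM against 6.78, 15.7 and 14.9, a change of 4.41 ± 0.45 (edgeR adjusted p = 2.21e-19). Of the 20 UMIs of *oca2* in library 1, 18 were in 1 nucleus. *dct* (chr14:123276900-123332792), which converts an intermediate of melanin synthesis, had 0, 96.5 and 140.2 CPM against 2.55, 5.56 and 6.37, a change of 3.92 ± 0.68 (edgeR adjusted p = 1.25e-06) that was not called without library 3. *tspan36*, a tetraspanin of zebrafish pigment cells, and *slc45a2*, a melanosome transporter, had 0, 1 and 15 and 0, 1 and 8 UMIs. Their changes were 2.99 ± 0.79 (edgeR adjusted p = 0.0058) and 2.4 ± 0.79 (edgeR adjusted p = 0.043), the first not called without library 2 and turned to -0.20 without library 3, and the second not called without any 1 of the 3 libraries.

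Library 1 stood apart for some pigment genes. Its 12 nuclei held no UMI of *mlana*, *dct*, *tspan36* or *slc45a2*, while 9 of them held *pmela*, a gene that chose them. There 1 UMI makes 23.4 CPM, so genes as low as *slc45a2*, at 33.0 CPM in library 3, cannot be placed. Only 1 of the 12 nuclei held more *pmela* than *enpp2* UMIs. *tyr*, the tyrosinase that starts melanin synthesis, had 0, 2 and 1 UMIs and was not called, with 1.61, 1.65 and 1.32 CPM in all other nuclei. The gene called lower was *trpm1a*, a channel of melanocytes and of ON bipolar cells, at 0, 57.9 and 45.4 CPM against 135, 179.8 and 163. Its change was -2.21 ± 0.54 (edgeR adjusted p = 0.00206), not called without library 2. Genes of melanosome transport and biogenesis such as *myo5aa*, *lyst*, *ap3b1a* and *dtnbp1a* were not called, with changes from -0.91 to -0.09.

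Of 16 genes for the visual cycle and retinoid handling, 13 could be tested, with a median of -0.07 (-0.06 with *aldh1a2* at its bound). Beside 2.66% of all genes called higher, 1 of the 13 was called, higher. This was *stra6* (chr24:7437107-7506866), the cell surface receptor that takes up retinol from its carrier in blood, at 258, 174 and 86.6 CPM against 5.78, 7.46 and 8.42. The change was 4.13 ± 0.53 (edgeR adjusted p = 5.21e-12), and the groups did not overlap. *rlbp1b*, the retinaldehyde-binding protein shared by pigment epithelium and Mueller glia, had 46.9, 174 and 70.1 CPM against 32.9, 149 and 75.6, a change of -0.06 ± 0.49 that was not called. The rule left out nuclei with *flt1*, which stood at 1181 to 1478 CPM in the Mueller glia nuclei chosen below. With *flt1* allowed in the rule the change of *rlbp1b* turned positive. *rrh*, a retinal-binding opsin of the pigment epithelium, had no UMI among the 336984 UMIs of the nuclei. *rdh5*, the dehydrogenase that makes 11-cis-retinal, had 1 UMI in all, with a change of -0.45 ± 1.63 that was not called. Both were counted under the 8.90 CPM that 3 UMIs make at this depth, and levels below that cannot be placed. *rgra*, the other opsin of that kind, had 0, 2 and 5 UMIs. *rpe65*, the isomerase of the cycle, was not analysed here.

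For transport, junctions and uptake, 2 of 10, 1 of 11 and 1 of 10 tested genes were called higher, beside 2.66% of all genes. Besides *kcnj13*, 1 more of 10 tested genes of ion, water and metabolite transport was called. This was *trpm3*, a cation channel, at 1172, 193 and 557 CPM against 101, 146 and 128, a change of 1.88 ± 0.46 (edgeR adjusted p = 0.00198) that was not called without library 3. *best2*, a chloride channel, fell under the filter on low counts and had 5, 0 and 3 UMIs. Besides *cldn19*, none of 11 tested genes of epithelial junctions and polarity was called. Of 10 tested genes of phagocytosis and lysosomes, *gpnmb*, a melanosome and lysosome glycoprotein, was called, at 0, 598 and 165 CPM against 1.44, 5.81 and 3.46. Its change was 5.59 ± 0.58 (edgeR adjusted p = 3.03e-19). In library 2, 16 of its UMIs were in 1 nucleus. *mertka*, a receptor for shed outer segments in mammals, had 0, 2 and 1 UMIs. The medians of the 3 lists were -0.34, 0.40 and -0.17 against -0.35 over all genes.

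**Figure D4:**
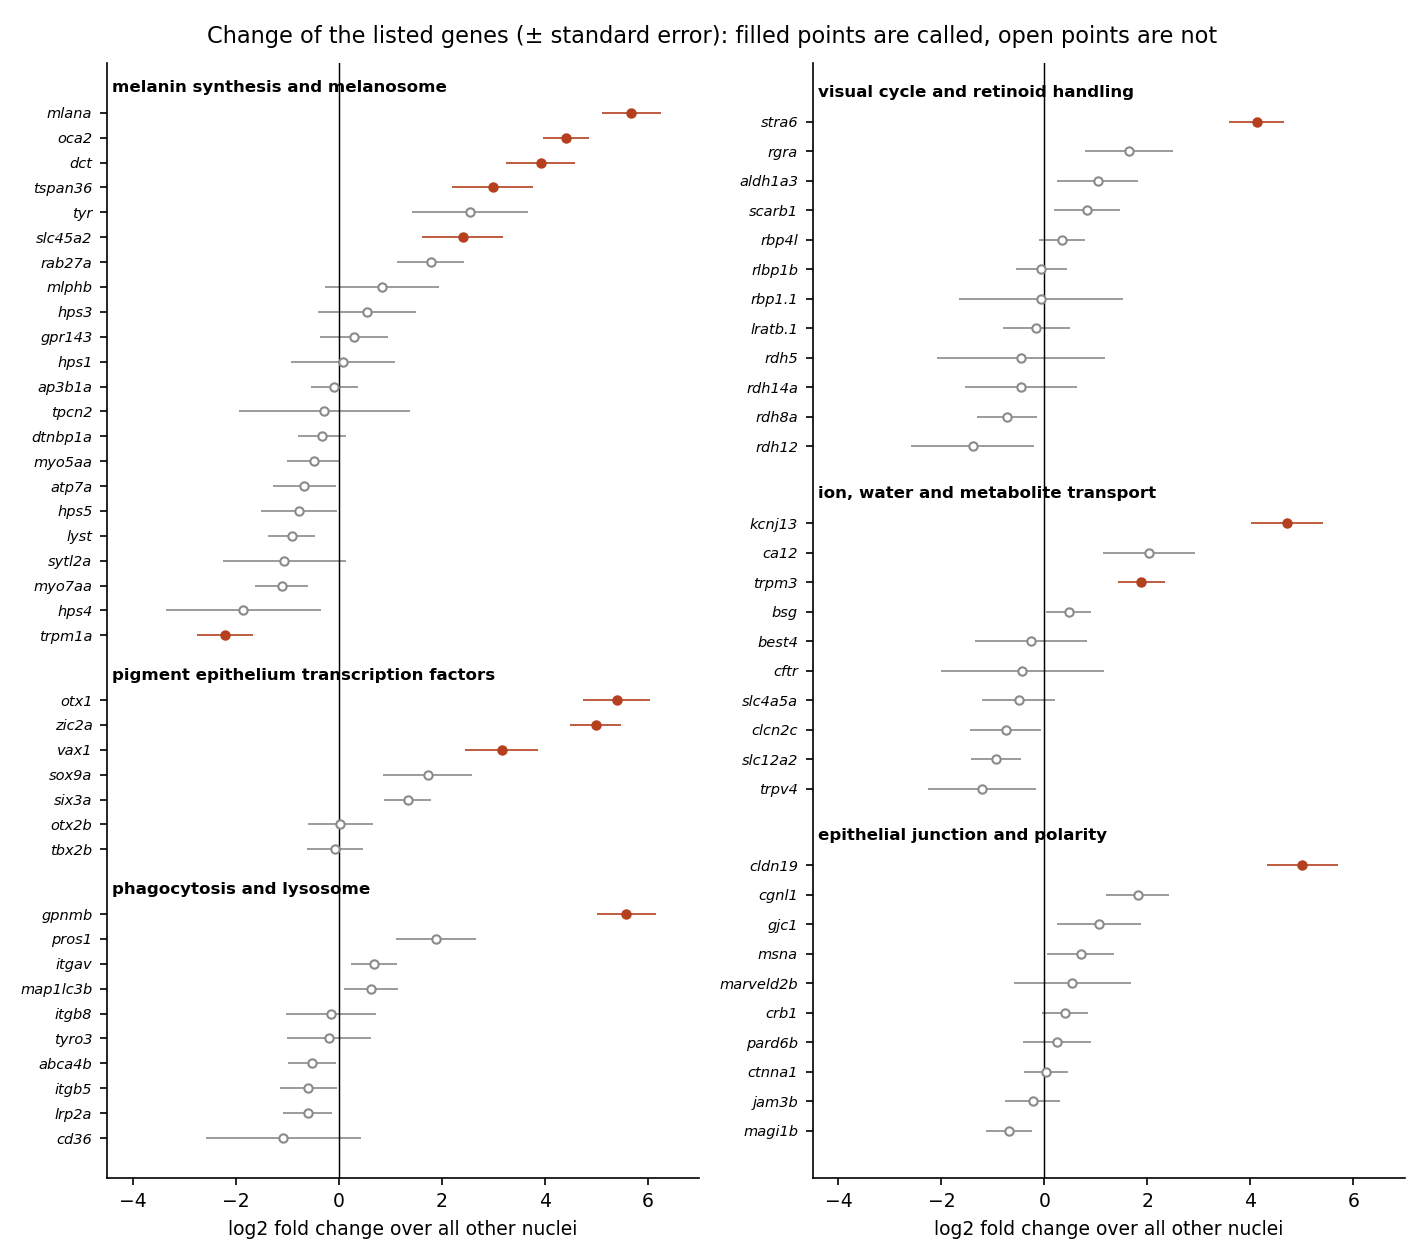
Log2 fold change of the pigment epithelium-like nuclei over all other nuclei (x axis, TMM-scaled, bars ± standard error of the edgeR fit on 3 libraries) for the tested genes of 6 lists (y axis); filled points were called and open points were not. Genes with no UMI in these nuclei, *vps18*, *oclnb* and *aldh1a2*, have no finite change and are left out. Melanosome genes run from 5.68 for *mlana* to -2.21 for *trpm1a*, and *stra6* at 4.13 is the filled point of the visual cycle.

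Of 10 transcription factors linked to the pigment epithelium, 7 could be tested and 3 were called higher, against 2.66% of all genes. Besides *otx1* and *zic2a* this was *vax1*, a homeobox gene of the optic stalk and ventral eye, at 117, 19.3 and 37.1 CPM against 5.56, 4.28 and 4.44, a change of 3.16 ± 0.71 (edgeR adjusted p = 0.000558) that was not called without library 3. *otx2b*, which acts with *mitf* in the pigment epithelium and is also used by photoreceptors and bipolar cells, had 0, 19.3 and 61.9 CPM against 45.8, 27.9 and 30.9 and was not called. The median of the list was 1.72 against -0.35 over all genes. Of the 3 called genes, *otx1* and *zic2a* were already leading genes, and *zic2a* and *vax1* are not particular to the pigment epithelium. The share of calls in this list is thus not specific to that tissue.

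Matrix and signalling genes had 6 calls, all higher, of 26 tested, against 2.66% of all genes called higher, with a median of 0.51 (0.59 with *fbln5* at its bound) against -0.35. The basement membrane genes *lama5*, a laminin chain, and *hspg2*, perlecan, had 234, 232 and 115 CPM and 281, 154 and 219 CPM, with changes of 2.48 ± 0.46 and 2.10 ± 0.46. *fbln1*, a fibulin of elastic matrix, had 46.9, 212 and 107 CPM and a change of 3.98 ± 0.59. The ligands *bmp4* and *tgfb2* had 141, 19.3 and 70.1 CPM and 328, 193 and 103 CPM, with changes of 3.75 ± 0.68 and 1.84 ± 0.45. *rspo3*, which strengthens Wnt signals, had 0, 57.9 and 86.6 CPM and a change of 3.67 ± 0.76. The edgeR adjusted p of these 6 genes ranged from 5.00e-09 for *fbln1* to 0.00209 for *tgfb2*; *hspg2*, *bmp4* and *rspo3* were not called without library 3, and *tgfb2* not without library 2.

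Markers of other cells were counted in the same nuclei, beside 2.66% of all genes called higher. Of 8 markers of fibroblasts and pericytes, 5 were tested and 2 were called higher, *acta2*, the actin of smooth muscle, at 0, 463 and 136 CPM against 0.502, 0.734 and 1.74, and *col1a2*, a chain of type I collagen, at 117, 116 and 74.2 CPM against 31.7, 4.52 and 9.43. Their changes were 7.03 ± 0.66 (edgeR adjusted p = 5.33e-23) and 2.84 ± 0.57 (edgeR adjusted p = 8.04e-05), the second not called without library 2 or without library 3. In library 2, 15 UMIs of *acta2* were in 1 nucleus. Of the other 6 genes, *dcn*, *lum*, *pdgfra*, *tbx18* and *foxd1* had no UMI in the nuclei and *col6a3* had 2 UMIs. *dcn* and *pdgfra*, the tested ones among those at 0, were not called, and the summed level of the list was 117 to 579 CPM against 25.9 to 43.0 in all other nuclei. Of the markers of melanocytes and neural crest, *mlana* was the 1 called of 5 tested, while *kita*, *mc1r* and *foxd3* were at 0. Of 9 markers of ciliary body and lens, 6 were tested and *wfdc1* was called, with *msx1a*, *cryaa* and *cryba4* at 0. None of the tested markers of endothelium (7), microglia and leukocytes (4), surface epithelium (5), oligodendrocytes (4) and erythroid cells (3) was called. Their summed levels in the same order were 38.6 to 82.5, 0 to 57.9, 19.3 to 117, 23.4 to 243 and 0 to 8.25 CPM, against 85.3 to 118, 37.2 to 55.3, 18 to 829, 48.3 to 82.9 and 15.1 to 55.8 CPM in all other nuclei. The oligodendrocyte markers of library 3 stood apart, at 243 CPM against 53.7, from 41 UMIs of LOC119972818, 25 of them in 1 nucleus, and 16 of *mpz*, 15 of them in 1 nucleus. Nuclei with *flt1*, a receptor for vascular endothelial growth factor, were left out by the rule, and this choice touches the endothelial markers. The part of these other markers in the results was not tested.

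Neuronal and photoreceptor RNA was present too. Of 17 neuronal markers tested, 6 were called lower, against 3% of all genes, and none higher, with a median of -1.44 and a summed level of 1525 to 2363 CPM against 4952 to 6077 CPM in all other nuclei. *snap25a* and *syt1a*, of the synaptic release machinery, had 23.4, 57.9 and 181 CPM and 141, 444 and 462 CPM, with changes of -1.97 ± 0.50 and -1.74 ± 0.50, neither called without library 2 or without the library block, *snap25a* also not with DESeq2 and *syt1a* not without library 3. *elavl4* and *rbfox1*, RNA-binding proteins of neurons, were among the 6 and were likewise lost without library 2, without library 3 or without the block. Of 8 rod markers none was called, at a summed 7313 to 22350.0 CPM against 10122 to 11773. Rhodopsin (LOC119973199) alone had 4688, 16888 and 7014 CPM, against 6298, 7332 and 6888 in all other nuclei and 37776, 14499 and 11627 in near-empty droplets. In library 2, 380 of its 875 UMIs were in 1 nucleus. Of the Mueller glia markers none of 8 tested was called, and the glutamine synthetase gene (LOC119964998) had 70.3, 1081 and 144 CPM against 64.5, 429.9 and 169.6, high in library 2, where 1 nucleus also met the Mueller glia rule given below. The part of rod and glial RNA in the results was not tested.

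Of the 6 lower genes of largest change, 4 were set by library 1. LOC119954095, LOC119957937, LOC119973497 and LOC119958188 had 529, 689, 2377 and 920 CPM in the other nuclei of library 1 but at most 13.0 CPM in those of libraries 2 and 3. In the pigment epithelium-like nuclei of library 1 they had 46.9, 70.3, 141 and 117 CPM. Their changes were from -4.15 to -3.64. Without library 1 LOC119973497 had a change of -0.96 and was not called, nor was it without library 2, and the other 3 genes fell under the filter on low counts. LOC119957093 had 0, 0 and 8.25 CPM against 13.3, 66.1 and 78.4, a change of -3.60 ± 0.95 (edgeR adjusted p = 0.00617), not called without library 2 or without library 3. LOC119963272 had 23.4, 0 and 0 CPM against 30.5, 88.4 and 59.1, a change of -4.30 ± 1.05 (edgeR adjusted p = 0.00226), also not called without library 2 or without library 3. None of the 6 genes was called with DESeq2 or without the library block. LOC119963272 stood at 1239, 566 and 699 CPM in Mueller glia nuclei, which also held *flt1*, and with *flt1* allowed in the rule its change turned to 0.65.

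Because connexin 43 is also a gene of Mueller glia, the nuclei were set against 46, 236 and 189 Mueller glia nuclei, chosen by a rule of the same form on the glutamine synthetase gene, the glial filament gene (LOC119954079) and *aqp4*. Of 6059 genes tested, 212 (3.5%) were higher in the pigment epithelium-like nuclei and 211 (3.48%) lower, 6.98% in either direction. Counts moved with the animals, to 700 and 416 without library 1, 38 and 41 without library 2, and 0 and 0 without library 3, where 476 genes had an unadjusted edgeR p under 0.05. Of the 12 leading genes, 8 could be tested and were called higher, namely *rh50* (6.86 ± 0.72, edgeR adjusted p = 0.000271), *clec19a* (5.86 ± 0.79, 0.000662), *zic2a* (5.53 ± 0.54, 0.00017), *mecom* (5.17 ± 0.64, 0.000385), *wfdc1* (5.12 ± 0.61, 0.000315), *cldn19* (4.96 ± 0.85, 0.00316), *rx3* (3.30 ± 0.48, 0.00105) and *slc38a4* (3.13 ± 0.55, 0.00373). The 12 genes had been picked for their rise in the same member sums, so these 8 calls are no separate evidence. All of the 8 genes but *slc38a4* passed the filter on low counts through the members. In Mueller glia *rx3* reached at most 34.0 CPM in any library, *mecom* 28.9, *zic2a* 14.1, *cldn19* 6.81 and *wfdc1* 5.92. *rh50* and *clec19a* were at no more than 3.70 CPM there. The list genes *oca2* (4.97 ± 0.59, edgeR adjusted p = 0.000315) and *stra6* (4.86 ± 0.64, 0.000614) were higher as well. They too passed the filter through the members, at no more than 14.1 and 11.1 CPM in Mueller glia. No gene was called without library 3, and *slc38a4* not without library 2 either. Lower were *rlbp1b* (-3.25 ± 0.56, edgeR adjusted p = 0.00341), the growth factor *bmp7b* (-3.96 ± 0.59, 0.00118) and the unconventional myosin *myo7aa* (-2.33 ± 0.46, 0.0082), the last not called without library 2 either. Of 8 tested melanosome genes 1 was thus called each way, *oca2* and *myo7aa*, and of 7 tested visual cycle genes also 1 each way, *stra6* and *rlbp1b*. The medians of these 2 lists were -0.20 and -0.16 against -0.09 over all genes tested. *rlbp1b* had 1222, 970.2 and 688 CPM in Mueller glia against 46.9, 174 and 70.1 here. The receptor gene *kdr* was also lower (-4.74 ± 0.62, edgeR adjusted p = 0.00056). *kdr*, *rlbp1b* and *flt1* were all high in Mueller glia, and the choice of nuclei without *flt1* touches such genes.

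Since *rx3* is also a gene of retinal progenitors, the nuclei were also set against 44, 52 and 83 nuclei with at least 2 UMIs of *prss56*, a protease of progenitors and glia at the retinal margin in mouse. Of 6280 genes, 505 (8.04%) were higher and 260 (4.14%) lower, 12.2% in either direction, with 146 and 134 without library 3 and 375 and 155 without library 2. *rx3* was higher here than there, at a change of 1.94 ± 0.41 (edgeR adjusted p = 0.000926), as were *stra6* at 2.73 ± 0.47 and *wfdc1* at 2.93 ± 0.50. The call of *rx3*, from 15, 7 and 29 UMIs here, was lost without the library block. *rx3* and *wfdc1* had been picked for their rise in the same member sums. In the *prss56*-positive nuclei *rx3* stood at 84.3, 26.4 and 49.6 CPM, *stra6* at 40.6, 33.0 and 12.9 and *wfdc1* at 53.1, 13.2 and 12.9. These genes passed the filter on low counts only with the members counted. Genes of dividing cells were lower, with changes of -2.39 ± 0.51 for *top2a*, a DNA topoisomerase (edgeR adjusted p = 0.00117), -1.79 ± 0.45 for *ccnd1*, cyclin D (0.00467), and -2.93 ± 0.68 for the *mki67*-like gene LOC119950706 (0.0027). These were 3 of the 11 tested genes of the progenitor and cell cycle list, in which *rx3* was the 1 called higher. *aldh1a3*, a retinoic acid synthesis enzyme, had 141, 0 and 12.4 CPM here against 337, 98.9 and 106 there, a change of -2.15 ± 0.53 (edgeR adjusted p = 0.00415). Of these 4 genes *top2a* was still called without library 3, and it was lost without the library block. *rbp4l*, related to the retinol carrier of blood, had 141, 714 and 351 CPM against 31.2, 188 and 261, a change of 1.51 ± 0.38 (edgeR adjusted p = 0.00532) that was lost without library 2 or without the block. It too passed the filter only with the members counted. Its level in near-empty droplets was 548, 710 and 724 CPM, and its change against them was -1.43 ± 0.54 and not called. In library 2, 14 of its 37 UMIs were in 1 nucleus. *rlbp1b* was lower than in the *prss56*-positive nuclei, at a change of -1.50 ± 0.40 (edgeR adjusted p = 0.00817). Its call was lost without library 3, with DESeq2, without the block or with *flt1* allowed. Of 5 tested visual cycle genes, *stra6* and *rbp4l* were thus called higher and *aldh1a3* and *rlbp1b* lower. Against all other nuclei 14 genes of the progenitor and cell cycle list were tested, and *rx3* was again the 1 call.

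Against near-empty droplets, 392 (2.84%) of 13815 genes were higher and 308 (2.23%) lower, 5.07% in either direction, with 128 and 7 without library 2 and 130 and 251 without library 3. The leading genes were above the droplets in every library by the way they were chosen. Of 21 tested melanosome genes, *mlana*, *oca2*, *dct* and *slc45a2* were called higher and *trpm1a* lower. *tspan36* was not called, at 31.6 CPM in the droplets of library 1. Of these calls that of *mlana* was lost without library 3. Those of *dct* and *slc45a2* were lost without library 2 or without library 3, the last also with DESeq2 and without the block. The call of *trpm1a* was lost without any 1 of the 3 libraries, with DESeq2 and without the block. Of the rod markers 3 of 8, and of the neuronal markers 8 of 17, were lower than in the droplets.

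Nuclei with and without *pmela* were then compared. *pmela* was found in 9, 13 and 65 nuclei and missing from 3, 1 and 8, which held 7796, 1483 and 14831 UMIs. Only 261 genes could be tested, and none was called in either direction by edgeR or by DESeq2, with 15 and 11 genes at an unadjusted p under 0.05. Without library 1, 2 genes were higher and 1 lower. The nuclei without *pmela* were few and had to hold both other genes of the rule, so the comparison cannot show that the groups are alike.

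The *enpp2* and *pmela* counts of single nuclei were then used to split the nuclei into 2 sorts. This split was chosen after the values were seen and is given as a description, with no test. *enpp2* had more UMIs than *pmela* in 10, 10 and 47 nuclei of libraries 1, 2 and 3, *pmela* had more in 1, 3 and 22, and they were equal in 1, 1 and 4. In library 3, where both sorts had over 20 nuclei, summed depth was 168710 UMIs in the *enpp2*-led and 70195 UMIs in the *pmela*-led nuclei.

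Several leading genes were higher in the *enpp2*-led nuclei of library 3. There *slc38a4* stood at 1458 CPM against 370.4 CPM in the *pmela*-led ones, *rh50* at 356 against 42.7, *zic2a* at 172 against 14.2 and *wfdc1* at 202 against 57.0. *kcnj13* and *cldn19*, the potassium channel and the claudin, had 21 and 22 UMIs in the *enpp2*-led nuclei and 0 in the *pmela*-led ones. *clu*, the secreted chaperone clusterin, picked after its values were seen, stood at 3438 against 641 CPM. In library 2 the order was the same for *slc38a4*, at 1329 against 0 CPM, and for *clu*, at 4576.5 against 0, over 10 and 3 nuclei. The channel gene *trpm3* had the other order, at 403 against 940.2 CPM in library 3 and 148 against 401 in library 2.

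Of the 5 melanosome genes called higher, *mlana*, *oca2* and *dct* had the higher level in the *pmela*-led nuclei of libraries 2 and 3, and *tspan36* did not in either. For *dct* in library 2 this rested on 2 UMIs in 1 *pmela*-led nucleus against 3 UMIs in 1 *enpp2*-led nucleus. In library 3, *mlana* stood at 1638 CPM against 231 CPM in the *enpp2*-led ones, *dct* at 385 against 41.5, *oca2* at 385 against 166 and *gpnmb* at 313 against 107. *tspan36* stood at 57.0 against 65.2 CPM and *slc45a2* at 57.0 against 23.7, while in library 2 both had 1 UMI in the *enpp2*-led nuclei and 0 in the *pmela*-led ones. *acta2* and *rspo3* went the same way, at 427 against 17.8 and 242 against 23.7 CPM. *flvcr1*, a membrane carrier of choline and heme, picked after its values were seen, had 4815 against 931 CPM. In library 2 the 3 *pmela*-led nuclei held 2308 CPM of *acta2* against 24.6, 2208 of *gpnmb* against 148, 903 of *oca2* against 123 and 6321.5 of *flvcr1* against 615. Of their UMIs, 15 of 23 for *acta2* and 16 of 22 for *gpnmb* were in 1 nucleus. In library 1 neither sort held a UMI of *mlana*, *dct*, *gpnmb* or *acta2*, and all 20 UMIs of *oca2* were in *enpp2*-led nuclei.

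Some genes did not follow this split. In library 3 *clec19a* stood at 249 CPM in the *enpp2*-led and 271 CPM in the *pmela*-led nuclei. There *otx1* stood at 71.1 and 71.2 CPM, *rx3* at 124 and 114, and *stra6* at 83.0 and 99.7. *gja1b* had 2086 and 1652.5 CPM in library 3 and 984 and 2007 in library 2. It is a gene of the rule, and a nucleus without *enpp2* had to hold it, so its levels are no finding. In library 3 median depth was 2677 and 3044.5 UMIs and the median mitochondrial share 3.55 and 2.73% in the 2 sorts.

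**Figure D5:**
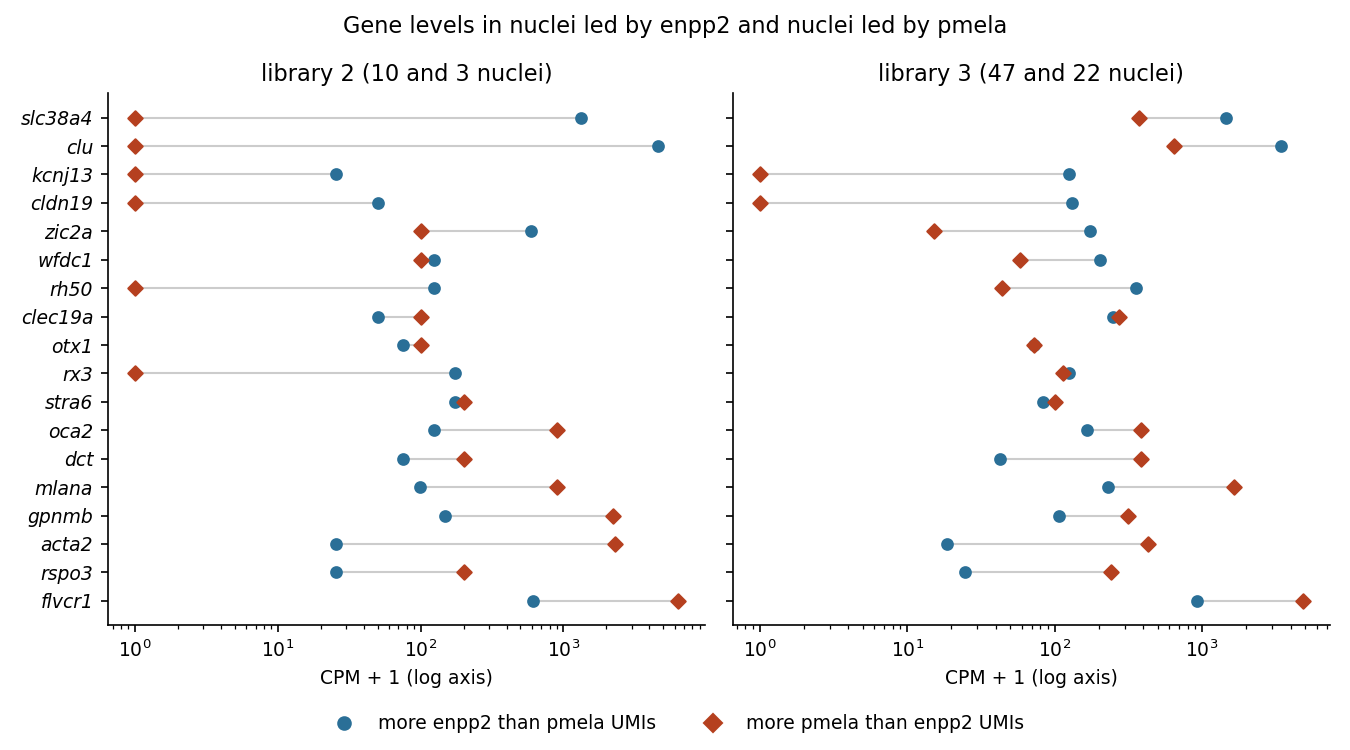
Levels in CPM with 1 added on a log axis (x axis) of 18 genes (y axis) in nuclei with more *enpp2* than *pmela* UMIs (blue circles) and in nuclei with more *pmela* (red diamonds), in library 2 (10 and 3 nuclei) and library 3 (47 and 22 nuclei); a point at 1 stands for no UMI. In library 3 the genes from *slc38a4* to *rh50* are higher in the blue nuclei and those from *oca2* to *flvcr1* in the red ones, while *clec19a*, *otx1*, *rx3* and *stra6* lie close together.

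The label held in part. Beside the genes of the rule, the nuclei held *oca2*, *stra6*, *otx1*, *kcnj13* and *cldn19* at a higher level than all other nuclei in each animal, and *mlana*, *dct* and *gpnmb* in 2 of 3 animals. In single animals this rested on as little as 1 UMI of *otx1* in library 1, 1 of *kcnj13* and 2 of *cldn19* in library 2, and for *oca2* in library 1 mostly on 1 nucleus, and the calls of *otx1*, *kcnj13* and *cldn19* were lost without library 3. *otx1*, *kcnj13* and *cldn19* had been chosen for being higher in all 3 libraries. In library 3 the *pmela*-led nuclei held 0 UMIs of *kcnj13* and *cldn19*, but higher levels of *mlana* and *dct* than the *enpp2*-led ones. In library 2 *mlana* went the same way, at 903 against 98.4 CPM. The other 3 genes had too few UMIs there to place, with 1 of *kcnj13*, 2 of *cldn19* and 3 of *dct* in the *enpp2*-led nuclei and 0, 0 and 2 in the *pmela*-led ones. Against all other nuclei, under the rule that leaves out *flt1*, no gene of the visual cycle but *stra6* was called. *tyr* had 3 UMIs in all, *trpm1a* was lower and *otx2b* was not called. Higher as well were *rx3*, *zic2a*, *vax1*, *wfdc1* and *acta2*, which are not particular to the pigment epithelium behind the retina. The nuclei are therefore called pigment epithelium-like by their rule, with no further name for either sort.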

How the data were processed

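Nuclei of 3 catshark retinas (1 library per animal) were analysed. Per the labels and methods, the authors aligned reads with STAR 2.7.10a (STARsolo) to sScyCan1.1 and deposited raw UMI counts over whole genes for all barcodes and 29017 features, with no filter. Reads in introns count, which adds UMIs to long genes. Gene positions and names are from RefSeq for the same build.

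Limits were mitochondrial UMIs under 10% (37 features) and, for libraries 1, 2 and 3, over 1000, 500 and 750 and under 20000, 24000 and 20000 UMIs, with over 500, 500 and 300 and under 5500, 6500 and 7000 features. Mitochondrial features were then left out. No doublet was removed; Scrublet (scanpy 1.11.5) was an alternative. CPM were computed from the deposited counts.

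Sums per class and library were tested in edgeR 4.0.16 (R 4.3.3; TMM, filterByExpr, quasi-likelihood F test, library as block since both sums come from 1 animal; SE is the absolute log2 fold change over the square root of F). The genes of a rule were left out of the tests they chose nuclei for. The fit was tried on simulated data with large changes put only into genes well expressed in the comparison class. Its behaviour for genes of a few UMIs was not checked that way. DESeq2 1.42.0 was an alternative, with others for normalization, filter, block, libraries, rule thresholds and depth.

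Named genes were those of the rule, those of 20 lists with a symbol in the annotation, and in the main comparison the 12 genes with a symbol, 5 with a LOC number and 6 lower genes of largest change that were called, went the same way in all 3 libraries, reached 50 CPM on average and, if higher, exceeded near-empty droplets in each. A listed gene without a symbol was missed. The nuclei, lists and tests were chosen with earlier results of these data known, so adjusted p-values may be too small.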

Additional observations from a re-analysis of the deposited data

Results flagged for a closer look

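Barcodes outside the limits of the study also met the marker rule, 4 in library 1, 20 in library 2 and 15 in library 3, and entered no comparison. In library 1, 3 of the 4 had 10% or more mitochondrial UMIs and 1 exceeded the upper limits with 43695 UMIs. In library 2, 5 exceeded the mitochondrial limit, 1 the upper limits and 14 fell under the lower limits, with a median of 497.5 UMIs for these last. In library 3 the numbers were 3, 1 and 11, with a median of 591 UMIs for the last. The 3 barcodes over the upper limits held 15, 4 and 1 UMIs of *stra6* and 55, 27 and 21 of *slc38a4*. Near-empty droplets that met the rule were 1 of 34947, 2 of 26769 and 2 of 32186.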

How the results depend on the processing

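The library block was the main design. Without it the calls against all other nuclei were 177 higher and 69 lower, against *prss56*-positive nuclei 176 and 79, and against near-empty droplets 248 and 74. With DESeq2 they were 177 lower against all other nuclei, 281 higher and 107 lower against *prss56*-positive nuclei, and 100 lower against droplets. Leaving out 1 library gave 91 to 622 higher and 51 to 514 lower against all other nuclei, 0 to 700 and 0 to 416 against Mueller glia, 146 to 676 and 134 to 243 against *prss56*-positive nuclei, 128 to 371 and 7 to 251 against droplets, and 0 to 2 and 0 to 1 for nuclei with against without *pmela*. A share of at least 0.3% gave 324 lower against all other nuclei and 126 against droplets; all 3 genes detected gave 316, 148 and, against *prss56*-positive nuclei, 168. With *flt1* allowed 678 were higher and 784 lower against droplets. Against Mueller glia, no filter gave 349 lower, and leaving out the deepest nucleus of each library, added after seeing the data, 130 higher. *rlbp1b*, not called at -0.06 against all other nuclei, turned to 0.16 with RLE, 0.17 with DESeq2, 0.17 at a share of 0.3%, 0.02 without top Scrublet scores, 0.03 at 2000 UMIs or more and 1.39 with *flt1* allowed; LOC119963272 turned to 0.65 with *flt1* allowed and *tspan36* ranged from -0.20 to 4.53 with 1 library left out. Of the fold changes of named genes under these alternatives, 1808 kept direction and side of the threshold, 200 lost the call and 8 turned. The causes were not tested. The comparison by *pmela* could not be fitted where all 3 genes were required, the mitochondrial limit was 5% or 2000 UMIs were required. With 12 and 14 nuclei in libraries 1 and 2, genes of a few UMIs cannot be placed.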
